A study of Homo sapiens with 4 samples.

Results

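The mRNAs described here encode 40 splicing regulators: 27 heterogeneous nuclear ribonucleoproteins (hnRNPs), PTBP and PCBP proteins, and 13 serine/arginine-rich (SR) and TRA2 proteins. They were found by matching the RefSeq or Ensembl transcript of each array probe to a list of symbols. That rule sets no condition on the measured values, but the list was chosen with earlier results of these data known. The array of 50599 probes held 77 probes for all 40 members. Probes had to be detected, that is well above background, on the 2 arrays of one group or the other, and 71 member probes for 39 members passed, among 13039 genes kept in all. The member that dropped out was SRSF1, whose single probe was detected on only 1 array of each group, with processed signals of 338 and 126 in TIA1 RIP and of 251 and 7.26 in total RNA.

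All RNA came from KYSE180, an established cell line of esophageal squamous cell carcinoma. In the TIA1 RIP group (2 arrays), ribonucleoprotein complexes had been immunoprecipitated with an antibody against TIA1 from cytoplasmic lysates. The other group was total RNA, labelled as input (2 arrays), and the methods mention RNA of the input lysates, which were cytoplasmic for the immunoprecipitation, without naming the fraction hybridized as total RNA. Each of the 4 single-colour Agilent arrays received cRNA made from 0.2 µg of RNA, all 4 lay on 1 slide, and no array of a control immunoprecipitate was analysed here. The labels do not say that the arrays of a group came from separate cultures, so p-values measure only the spread between these arrays. The RNA was pooled from many cells, so fewer cells with an mRNA and less of it per cell cannot be told apart.

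TIA1 is an RNA-binding protein that prefers U-rich stretches, regulates splicing in the nucleus, and in the cytoplasm affects the translation and stability of mRNAs. hnRNPs are abundant proteins that coat pre-mRNA and often repress exon use, whereas SR proteins bind exonic enhancers and help to recruit the splicing machinery. Many genes of both groups regulate their own mRNA through alternative exons that lead to nonsense-mediated decay. In the GENCODE annotation on GRCh37, all 13 SR and TRA2 genes and 31 of the 40 members had at least 1 transcript of that class. Among 19528 protein-coding genes, not limited to those kept, the share was 38.3%. This measure can rise with the number of annotated transcripts, which ran from 1 (HNRNPA0) to 84 (HNRNPA1) in the members.

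The 3′ UTRs of the members were U-rich. A run of 5 or more U (TTTTT in the DNA letters, searched on the transcript strand only) was present in the annotated 3′ UTR of all 40 members and in 76.0% of 18913 protein-coding transcripts with a 3′ UTR of at least 30 nucleotides. U made up a median of 35.7% of the 3′ UTR over the 39 members kept and 29.4% over 11550 genes kept with an annotated 3′ UTR. The most U-rich window of 30 nucleotides held a median of 20 U in the members and 18 in all transcripts. The run and window measures can rise with 3′ UTR length, whose median was 1687 nucleotides in the members kept and 1189 over 11550 genes. The windows of 7 members are printed 5′ to 3′ on the transcript strand, because TIA1 is known to bind such stretches: HNRNPH3 and HNRNPH2, which had the highest ratios of TIA1 RIP over total RNA, a pair that was higher in TIA1 RIP than on either total RNA array, and 3 of the members with low ratios. Capitals mark runs of at least 5 U, and every window lies in the 3′ UTR of the gene's annotated transcript.
HNRNPH3, chr10:70101864-70101893, plus strand: tttcttacagatttaatttcttttgtattt
HNRNPH2, chrX:100668469-100668498, plus strand: ttctctttctttatctttctttctcctttt
PCBP2, chr12:53873453-53873482, plus strand: tggTTTTTTTTTTTTggctcatgaaTTTTT
SRSF9, chr12:120899704-120899733, minus strand: tcttaggaaaTTTTTTTaaTTTTTTTTTTT
SRSF6, chr20:42089978-42090007, plus strand: TTTTTTTTTTTTTTTTTTTTTTTTTTTTTT
HNRNPL, chr19:39327239-39327268, minus strand: ttccTTTTTTTTTTTTTTTTTTTTTTTTTT
RALY, chr20:32672262-32672291, plus strand: ctgtgtggttatgtctattctatagatttt
The windows held 19 U in HNRNPH3, 21 in HNRNPH2, 20 in PCBP2, 21 in SRSF9, 30 in SRSF6, 28 in HNRNPL and 16 in RALY. The SRSF6 window is from a coding transcript. The low ratio of that gene averages a coding-transcript probe at 1.03 and a noncoding-transcript probe at -1.30. Over the 39 members, the number of U in this window and the log2 ratio had a Pearson's r of 0.12 and a Spearman's rho of 0.22 (0.39 and 0.40 over 11499 genes). The arrays do not locate where TIA1 was bound.

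The arrays differed in brightness. The processed signal at the 75th percentile was 1514 for TIA1 RIP 1, 1271 for TIA1 RIP 2, 714 for total RNA 1 and 69.9 for total RNA 2, and 45.8% to 48.4% of spots were well above background on the first 3 arrays against 32.2% on total RNA 2. All 71 kept member probes were detected on both TIA1 RIP arrays and on total RNA 1, and 51 of them on total RNA 2. For 6 members (HNRNPH2, HNRNPUL2, PTBP2, PTBP3, SRSF8 and TRA2A) no kept probe was detected on total RNA 2, so only 1 of the total RNA arrays measured them above background. Levels are given as the log2 processed signal minus the 75th percentile of the array, averaged over the kept probes of a gene, and a log2 ratio is the mean TIA1 RIP level minus the mean total RNA level. The arrays measure relative levels only: when spike-in RNAs set the scale instead, the median log2 ratio of all genes rose from -0.04 to 4.78 so every direction below is relative to the other genes of the array. All 9 squamous epithelial markers were detected on every array. Of 5 fibroblast, 4 immune cell and 3 endothelial markers, 1, 3 and 2 were kept, and COL1A2, COL3A1, PDGFRB, DCN, CD3E and PECAM1 were not. Their brightest probes summed to 376 and 521 in TIA1 RIP and 380 and 73.6 in total RNA for the fibroblast markers, to 16633 and 7368 against 5416 and 609 for the immune cell markers, and to 555 and 665 against 158 and 86.0 for the endothelial markers. CD68 was the brightest immune cell marker kept, at levels of 3.35 and 2.12 in TIA1 RIP and 2.78 and 2.41 in total RNA. The part of these markers in the results was not tested.

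The median log2 ratio of the splicing regulator mRNAs, TIA1 RIP over total RNA, was 0.79 (39 members), against -0.04 over 13039 genes. Of the 39 members, 34 lay above 0. The 6 members with no kept probe detected on total RNA 2 passed the filter only through TIA1 RIP, and they are part of the counts here and below. With only probes detected on all arrays, the median was 0.62 over 33 members and -0.35 over 9237 genes. However, no member passed an adjusted p of 0.05 in limma's fit over all genes, in which 0% of all genes were called (144 were higher and 524 lower at an unadjusted p under 0.05, none of them members). The adjusted p of the members ranged from 0.776 to 0.998. The levels of 16 members did not overlap between the groups and were higher on both TIA1 RIP arrays than on both total RNA arrays, where 19.4% of all genes did the same. RALY was the 1 member that was lower on both, against 21.7% of all genes.

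**Figure D1:**
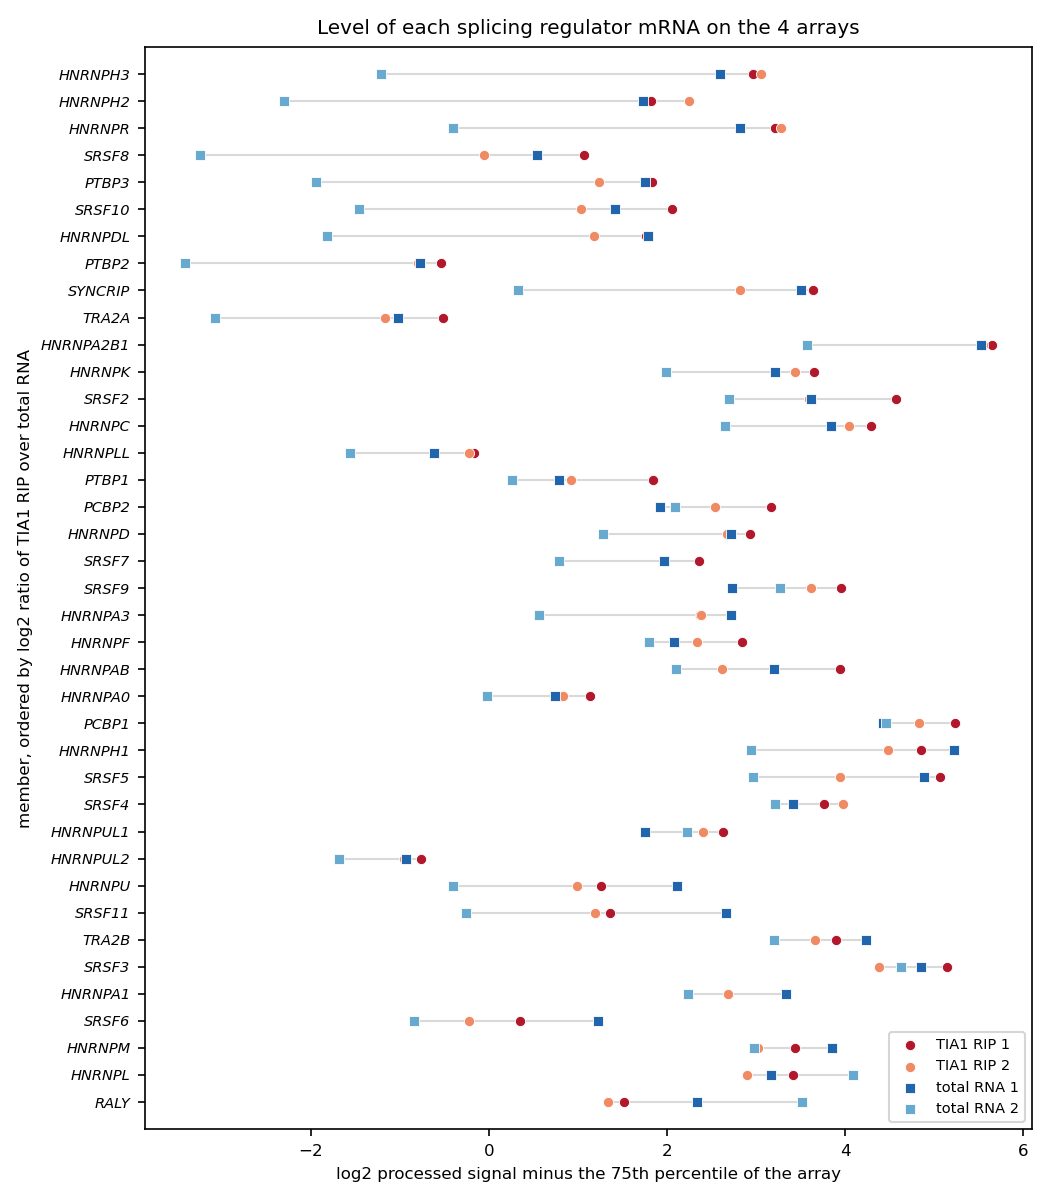
Level of each of the 39 members kept (horizontal axis: log2 processed signal minus the 75th percentile of the array) on both TIA1 RIP arrays (circles) and both total RNA arrays (squares), ordered from the lowest log2 ratio at the bottom to the highest at the top; a grey line spans the 4 values. The light blue squares of total RNA 2 lie far to the left of the other symbols for the members at the top, and to the right of them for RALY and HNRNPL.

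The size of the ratio depended on which total RNA array was the comparison. Against total RNA 1 alone the median log2 difference of the members was 0.08, close to that of all genes (0.07). Against total RNA 2 alone it was 1.38, where that of all genes was -0.29. Total RNA 2 was lower than total RNA 1 for 33 of 39 members, with a median difference of -1.19, whereas 43.0% of all genes were lower there and their median difference was 0.38. The median absolute difference between the total RNA arrays was 1.19 for the members and 1.50 for all genes, and between the TIA1 RIP arrays it was 0.37 and 0.48. TIA1 RIP 2 was lower than TIA1 RIP 1 for 34 of the 39 members and for 47.7% of all genes.

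Counted array by array, 16 of 39 members were higher on both TIA1 RIP arrays than on total RNA 1 (41.2% of all genes) and 10 were lower (35.5% of all genes). Against total RNA 2, 36 were higher (39.6% of all genes) and 2, RALY and HNRNPL, were lower (49.7% of all genes). Against total RNA 1, 36 of the 39 members lay within 2-fold of the TIA1 RIP mean, as did 73.1% of all genes.

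**Figure D2:**
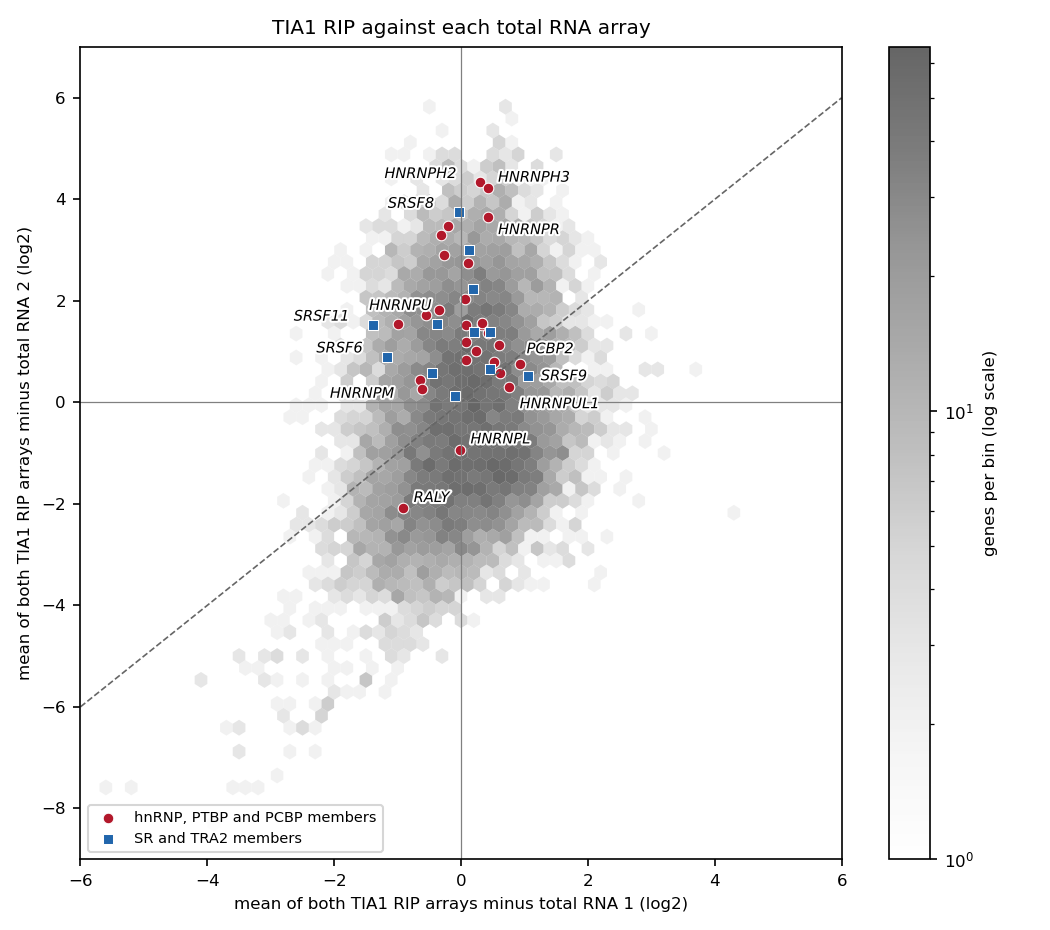
Mean of both TIA1 RIP arrays minus total RNA 1 (horizontal, log2) and minus total RNA 2 (vertical, log2) for hnRNP, PTBP and PCBP members (circles) and SR and TRA2 members (squares), over all 13039 genes (grey hexagons, darker for more genes per bin). The dashed line marks equal differences; the members cluster around 0 on the horizontal axis (median 0.08) and lie mostly above 0 on the vertical axis (median 1.38).

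The difference between the total RNA arrays moved with base composition. Over 11595 genes with an annotated transcript (88.9% of genes kept), total RNA 2 minus total RNA 1 had a Pearson's r of 0.69 with the GC content of the transcript, and over the 39 members r was 0.65 (Spearman's rho 0.62). The members were AU-rich, with a median GC content of 42.2% against 49.9% in all genes. The log2 difference of TIA1 RIP against total RNA 1 had an r of 0.27 with GC content over the members and of -0.06 over all genes, and that against total RNA 2 an r of -0.57 and -0.72. With the U content of the 3′ UTR, r over the members was 0.07 against total RNA 1 and 0.27 against total RNA 2, and over 11550 genes it was 0.08 and 0.62. These correlations are across genes that share the same 4 arrays and describe them only. The part of base composition in the results was not tested.

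**Figure D3:**
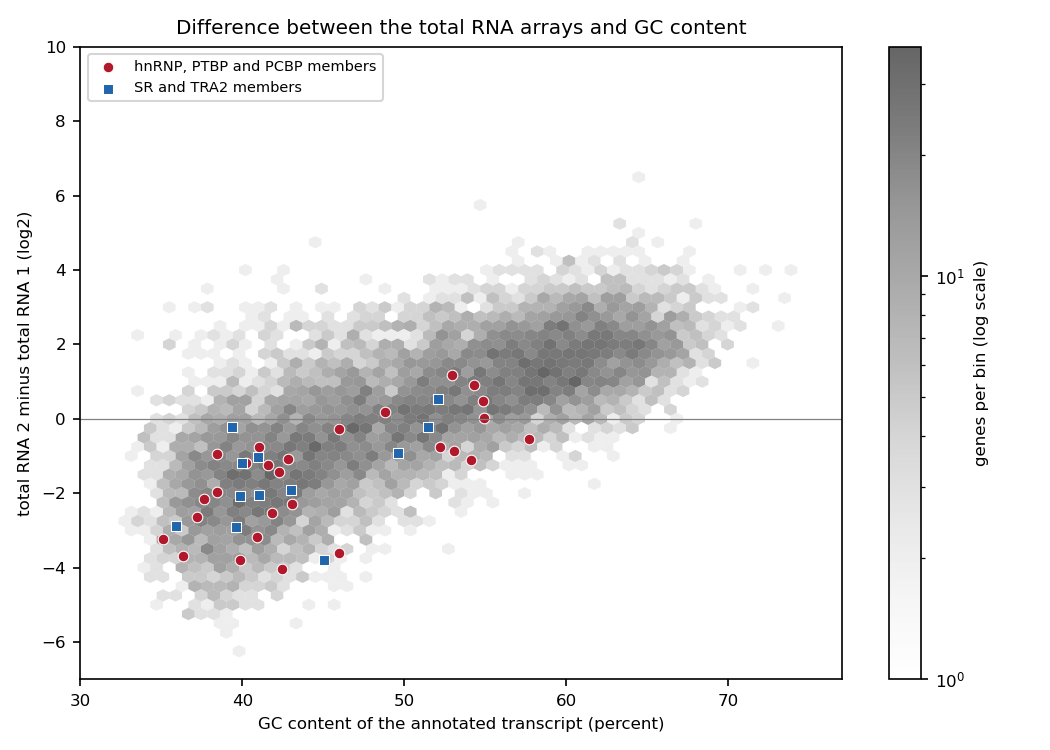
Total RNA 2 minus total RNA 1 (vertical, log2) against the GC content of the annotated transcript (horizontal, percent) for the 39 members (circles and squares) and 11595 genes (grey hexagons, darker for more genes per bin). Genes of low GC content lie below 0 and genes of high GC content above it, and the members follow the same slope (r = 0.65, all genes 0.69).

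The hnRNP F/H group, which binds G-rich sequences, held the highest ratios. HNRNPH3 was at 2.97 and 3.06 in TIA1 RIP and at 2.59 and -1.21 in total RNA, a log2 ratio of 2.32 ± 1.27 (SE). Each SE given here and below is from limma's moderated fit, which draws the spread of a gene toward that of all genes. It can therefore be larger or smaller than the spread of the gene's own 4 values would give. HNRNPH2 was at 1.83 and 2.25 in TIA1 RIP and at 1.73 and -2.30 in total RNA, a log2 ratio of 2.32 ± 1.32. For both genes the TIA1 RIP values and total RNA 1 were close to each other and total RNA 2 was far below, so the log2 difference was 0.42 and 0.30 against total RNA 1 and 4.22 and 4.34 against total RNA 2. The signals of the HNRNPH2 probe on total RNA 2 (14.2) and of 1 of the 2 HNRNPH3 probes (22.2) were not well above background. HNRNPF lay above both total RNA arrays, at 2.85 and 2.34 against 2.08 and 1.79. Its log2 difference was 0.51 against total RNA 1, more than for HNRNPH3 and HNRNPH2, and 0.80 against total RNA 2, less than for them. HNRNPH1 was at 4.85 and 4.48 in TIA1 RIP, between its total RNA values of 5.23 and 2.95.

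The hnRNP M, R and Q group had members at both ends. HNRNPR was at 3.21 and 3.28 in TIA1 RIP and at 2.83 and -0.40 in total RNA, a log2 ratio of 2.03 ± 1.15. SYNCRIP, also called hnRNP Q, was at 3.64 and 2.82 against 3.51 and 0.32. HNRNPM was at 3.44 and 3.03 in TIA1 RIP and at 3.86 and 2.98 in total RNA, a log2 ratio of -0.19 ± 0.81 that turned positive under other scalings. The groups overlapped for SYNCRIP and HNRNPM and did not for HNRNPR.

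In the hnRNP A/B and D group, whose founding members bind exonic silencers and shuttle between nucleus and cytoplasm, the median log2 ratio of 7 members was 0.73. HNRNPA2B1, among the 3 members with the highest mean signal over their kept probes in total RNA, was at 5.65 and 5.55 in TIA1 RIP and at 5.53 and 3.57 in total RNA. HNRNPA1 was at 2.69 on both TIA1 RIP arrays and at 3.34 and 2.24 in total RNA, a log2 ratio of -0.10 ± 0.82 that turned positive under other scalings, and HNRNPA3 was at 2.37 and 2.38 in TIA1 RIP and at 2.72 and 0.56 in total RNA. HNRNPA1 and HNRNPA3 lay between the total RNA arrays, and HNRNPA2B1 above both, though TIA1 RIP 2 exceeded total RNA 1 by only 0.01. Of the other members, HNRNPA0 was higher on both TIA1 RIP arrays than on both total RNA arrays, and HNRNPAB, HNRNPD and HNRNPDL had log2 ratios of 0.63, 0.80 and 1.49 with overlapping groups.

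The KH domain group binds C-rich sequences, and all 3 members were higher on both TIA1 RIP arrays than on both total RNA arrays. The same held for 19.4% of all genes. PCBP2 was at 3.17 and 2.54 in TIA1 RIP and at 1.92 and 2.09 in total RNA, and PCBP1, which has a single exon and is another of those 3 members, was at 5.24 and 4.84 against 4.42 and 4.46. HNRNPK was at 3.65 and 3.44 against 3.22 and 1.99. The log2 ratio was 0.85 ± 0.79 for PCBP2, 0.60 ± 0.77 for PCBP1 and 0.94 ± 0.83 for HNRNPK. PCBP1 and PCBP2 had nearly the same value on both total RNA arrays, so the comparison array made little difference to them (0.61 and 0.58 for PCBP1, 0.93 and 0.76 for PCBP2). In a set picked after its values were seen, 9 members were higher on both TIA1 RIP arrays than on both total RNA arrays and had total RNA arrays within 2-fold of each other: HNRNPA0, HNRNPF, PCBP1, PCBP2, PTBP1, HNRNPLL, HNRNPUL1, SRSF4 and SRSF9. The same conditions held for 10.3% of all genes.

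The hnRNP C group gave the lowest ratio. RALY, a relative of hnRNP C that is known from the agouti locus of the mouse, was at 1.52 and 1.34 in TIA1 RIP and at 2.34 and 3.52 in total RNA, a log2 ratio of -1.50 ± 0.83 (-0.81 with normexp background correction). It lay below both total RNA arrays, by 0.91 and 2.09 on the log2 scale, and its single probe was detected on all 4 arrays. HNRNPC, which binds U-tracts in pre-mRNA, was at 4.29 and 4.05 against 3.85 and 2.65, above both. The RALY transcript has a GC content of 53.0%, and its 3′ UTR has the lowest share of U among the members, at 25.0%.

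The PTB and hnRNP L group holds repressors that bind pyrimidine- or CA-rich sequences. PTBP3 was at 1.83 and 1.24 in TIA1 RIP and at 1.75 and -1.94 in total RNA, a log2 ratio of 1.63 ± 1.25, and neither of its probes was detected on total RNA 2. HNRNPL was at 3.41 and 2.90 in TIA1 RIP and at 3.17 and 4.09 in total RNA, a log2 ratio of -0.47 ± 0.82. HNRNPL thus differed by -0.02 from total RNA 1 and by -0.93 from total RNA 2, and its sign turned with normexp background correction (0.19). PTBP1 and HNRNPLL were higher on both TIA1 RIP arrays than on both total RNA arrays, with log2 ratios of 0.86 and 0.89, and PTBP2 was at -0.54 and -0.79 against -0.78 and -3.41. In the hnRNP U group, HNRNPU was 0.99 below total RNA 1 and 1.53 above total RNA 2, HNRNPUL1 was above both, and HNRNPUL2 had a log2 ratio of 0.45.

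Among the 10 SR proteins kept, the median log2 ratio was 0.68. Of these, 3 (SRSF4, SRSF7 and SRSF9) were higher on both TIA1 RIP arrays than on both total RNA arrays, as were 19.4% of all genes. For SRSF7, TIA1 RIP 2 exceeded total RNA 1 by only 0.0064, and its probes differed from total RNA 1 by 0.74 and -0.34. SRSF8 was at 1.06 and -0.06 in TIA1 RIP and at 0.54 and -3.25 in total RNA, a log2 ratio of 1.86 ± 1.30 (0.86 with normexp background correction), and was not detected on total RNA 2. SRSF10, a splicing repressor when dephosphorylated, was at 2.06 and 1.04 against 1.42 and -1.46, a log2 ratio of 1.57 ± 1.12. Only 1 of its 4 probes was detected on total RNA 2, and that probe alone gave 0.71. It had the highest mean log2 signal over the 4 arrays. Another probe, brighter on both TIA1 RIP arrays and on total RNA 1, gave 1.75. Both genes had a TIA1 RIP value on each side of total RNA 1. SRSF9 was at 3.96 and 3.62 against 2.73 and 3.27, and it exceeded total RNA 1 by more than any other member did (1.06). SRSF3, a small SR protein and the last of the 3 members with the highest mean signal in total RNA, was at 5.14 and 4.38 against 4.86 and 4.63, a log2 ratio of 0.02 ± 0.79.

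On the gene level, SRSF6 and SRSF11 were the SR members below total RNA 1 by more than 2-fold. The SRSF6 value averages probes of a coding and a noncoding transcript, which differed from total RNA 1 by -0.69 and -1.64. The coding probe alone had a log2 ratio of 1.03. SRSF6 was at 0.34 and -0.22 in TIA1 RIP and at 1.23 and -0.84 in total RNA, a log2 ratio of -0.13 ± 0.95 that turned positive with the other scalings. SRSF11 was at 1.36 and 1.19 against 2.66 and -0.25. Both lay 1.16 and 1.39 below total RNA 1 and 0.90 and 1.53 above total RNA 2. The remaining SR members, SRSF2 and SRSF5, had log2 ratios of 0.92 and 0.58. Of the TRA2 proteins, sequence-specific activators of splicing, TRA2B was at 3.90 and 3.66 against 4.24 and 3.20, a log2 ratio of 0.06 ± 0.82, and TRA2A, not detected on total RNA 2, was at -0.52 and -1.17 against -1.02 and -3.08.

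GAPDH, the constitutive mRNA that the study used as reference, was itself lower on both TIA1 RIP arrays than on both total RNA arrays, though it did not pass the adjusted threshold. It was at 6.49 and 6.69 in TIA1 RIP and at 7.67 and 9.63 in total RNA, a log2 ratio of -2.06 ± 0.93. Relative to GAPDH, 38 of 39 members were more than 2.5-fold higher in TIA1 RIP, and 72.4% of all genes were as well. With quantile normalization these counts were 29 members and 33.7% of all genes, and without total RNA 2 they were 14 members and 42.3% of all genes. On the 75th percentile scale RALY was the exception, at 1.47-fold. The members' median was 2.85 on the log2 scale and that of all genes 2.02. No member passed the adjusted threshold in limma's fit relative to GAPDH (lowest adjusted p = 0.221, 4 of 39 at an unadjusted p under 0.05), nor did any gene (2637 at an unadjusted p under 0.05). In all 4 pairs of arrays, 8 members passed 2.5-fold relative to GAPDH (26.2% of all genes), and the same number passed in both pairs with total RNA 1 (31.1% of all genes). They were HNRNPH3, HNRNPR, HNRNPLL, PCBP1, PCBP2, HNRNPUL1, SRSF4 and SRSF9. On the 75th percentile scale, 8 members were more than 2.5-fold higher (12% of all genes) and RALY alone was more than 2.5-fold lower (14.3% of all genes).

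Probes of the same gene often gave different ratios. For 21 members with 2 or more kept probes, the log2 ratios of a gene's probes spanned a median of 0.95, against 0.75 for 3007 genes. The span was 0.55 against total RNA 1 and 1.52 against total RNA 2 (0.52 and 1.15 for all genes). It exceeded 2 in 3 members, HNRNPA3, SRSF6 and TRA2B (12.3% of all genes with 2 or more probes). The diffSplice test of limma, which sets each probe against the others of its gene, called none of 3007 genes and no member (50 genes and no member at an unadjusted p under 0.05, lowest unadjusted p of a member 0.101). In 6 members the probes had log2 ratios of opposite sign, and in 10 against total RNA 1 alone. The share of all genes with opposite signs was not counted, so whether the members are unusual in this is not known. Opposite signs can come from small differences, as in SRSF3 (-0.20 and 0.0079 against total RNA 1).

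**Figure D4:**
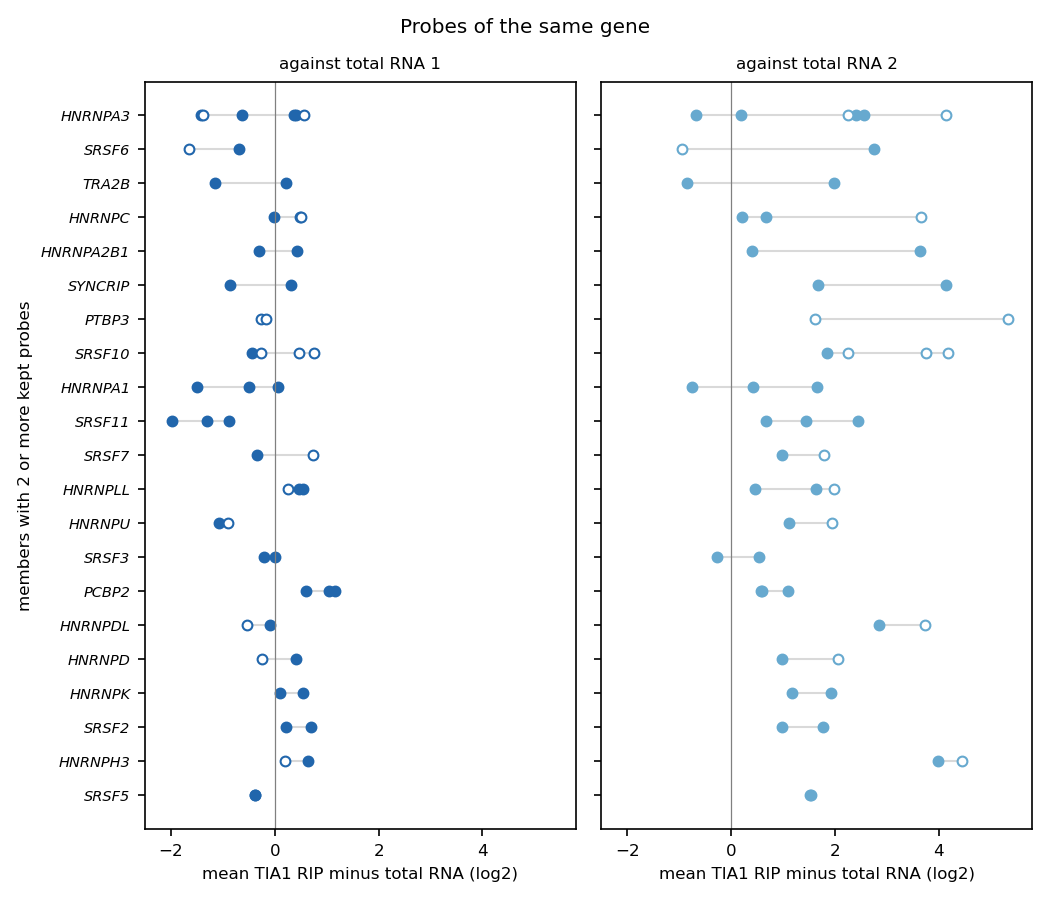
Mean of both TIA1 RIP arrays minus total RNA 1 (left, log2) and minus total RNA 2 (right, log2) for each kept probe of the 21 members with 2 or more kept probes, ordered by span; filled points are probes detected on all 4 arrays, open points probes not detected on total RNA 2, and a grey line joins the probes of a gene. Spans are wider on the right (median 1.52) than on the left (median 0.55).

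HNRNPA3 had 6 kept probes, all assigned to one RefSeq transcript, with log2 ratios from -1.05 to 2.35. Against total RNA 1 they fell between -1.43 and 0.56. The pair of HNRNPA2B1 probes, also assigned to one transcript, gave nearly the same signal on total RNA 1 (33024 and 33077) and different ones on total RNA 2 (351 and 1961). They also differed in TIA1 RIP (93042 and 81151 against 61983 and 43457), and their log2 ratios were 2.04 and 0.05. The probes of SYNCRIP (2.23 and 0.41) and HNRNPC (0.10 to 2.08) differed by a similar amount. In HNRNPA3 the span was 1.99 against total RNA 1 and 4.80 against total RNA 2, in HNRNPA2B1 0.75 and 3.23, and in HNRNPC 0.53 and 3.45.

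Probes of different transcripts of a gene differed as well. The SRSF6 probe of the coding transcript was at 3.55 and 1.78 in TIA1 RIP and at 3.35 and -0.09 in total RNA, and the probe of its noncoding transcript at -2.86 and -2.22 against -0.90 and -1.59. The noncoding probe was not detected on total RNA 2, where its signal was 23.2, and it was 1.64 below total RNA 1 on the log2 scale, against 0.69 for the coding probe. A TRA2B probe assigned to one coding transcript had a log2 ratio of 1.11 and the probe of another -0.99, which was below both total RNA arrays by 1.14 and 0.84 on the log2 scale. The HNRNPA1 probe of an Ensembl coding transcript was 1.50 below total RNA 1, while the other probes of that gene were at -0.50 and 0.06. The files give no probe sequences or positions, so which exon each probe covers was not analysed here. Probes that gave nearly the same ratio were those of SRSF5 (0.57 and 0.58) and HNRNPH3 (2.32 and 2.33). The HNRNPH3 probes differed more against each total RNA array alone. The probe not detected on total RNA 2 gave 0.20 and 4.46 against total RNA 1 and total RNA 2, and the other 0.64 and 3.99.

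Genes that act on the same proteins were counted beside the members. Of 10 kinases and importers of SR proteins, 8 were kept, with a median log2 ratio of 0.62 (-0.43 against total RNA 1 and 1.65 against total RNA 2), and none passed limma's adjusted threshold in either direction. SRPK1, a mainly cytoplasmic kinase of SR proteins, had the highest ratio at 1.52, and CLK3, a nuclear one, the lowest at -0.93. Against total RNA 1 and total RNA 2, SRPK1 differed by -0.21 and 3.25, and CLK3 by -0.52 and -1.35. Of 45 other splicing regulators, 39 were kept, with a median log2 ratio of 0.18 (-0.30 against total RNA 1 and 0.40 against total RNA 2), and again none passed. The highest and lowest were MBNL2 (2.36), a muscleblind splicing factor, MBNL1 (1.69), RBM10 (-1.70) and SRRM2 (-2.63), a large SR-related protein of nuclear speckles. Against total RNA 1 and total RNA 2, MBNL2 differed by 0.58 and 4.14, MBNL1 by -0.09 and 3.46, and RBM10 by -1.26 and -2.14. SRRM2 was at 0.01 and -0.26 in TIA1 RIP and at 2.93 and 2.08 in total RNA, so it was below both total RNA arrays.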

How the data were processed

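RNA from TIA1 immunoprecipitates and total RNA of KYSE180 cells was hybridized to 2 single-colour Agilent arrays each. The authors deposited Agilent Feature Extraction 10.7.1.1 output on hg19, which holds spot intensities on a linear scale, not normalized between arrays, and other columns deposited with them, the flags used as filters. Processed intensities were converted to log2, spots flagged as uneven or deviant were dropped, each array was centred on its 75th percentile and replicate spots of 1 probe were combined by their mean. Detection on an array required a share of 0.5 or more of the probe's spots to be flagged well above background; 20099 of 50599 probes were kept, with 7 lost to dropped spots. Names came from RefSeq and GENCODE 44 lifted to GRCh37 and were found for 34510 probes. limma 3.58.1 in R 4.3.3 (lmFit, eBayes, diffSplice) was fitted over all genes or probes with Benjamini-Hochberg adjustment at 0.05. It was also run on simulated data, in part with less spread than these arrays had, and nothing is concluded from that run here. Array number limits the precision. The raw mean signal is not in the columns used, so normexp (offset 50) was run on the median signal.

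The members and lists were chosen with earlier results of these data known. Of the marker genes and the sequence windows, 1 each is not reported here. Members shown with every array value are the 6 highest and 6 lowest log2 ratios, those past an adjusted threshold, those whose probes span more than 2, and the 3 brightest in total RNA; others were added for their family or after their values were seen. Alternatives covered background, scaling, filters, probe choice, reference gene, fold, the replicate block and each array left out. Python 3.11.15 and matplotlib 3.10.9 drew the figures.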

Additional observations from a re-analysis of the deposited data

How the results depend on the processing

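No member passed limma's adjusted threshold with any other background correction, 75th percentile or quantile scaling, filter or choice of probe. With spike-in scaling, an alternative chosen after seeing the data, 37 members and 64 member probes were called (64.1% of all genes, 65.5% of all probes), 39 members were higher and 0 lower on both TIA1 RIP arrays (98.2% and 0.184% of all genes), and the members' median was 5.60; relative to all genes it stayed at 0.82. With the all-gene median as reference instead of GAPDH, 9 members passed 2.5-fold (12.7% of all genes). Leaving out 1 array gave 0 to 13 called members, 0 to 27 called probes, 14 to 38 members past 2.5-fold relative to GAPDH (42.3% to 77.5% of all genes; 0 to 38 past its adjusted threshold), 16 to 36 members higher and 1 to 10 lower on all arrays, 0 to 4 members whose probes differed, a median of 0.08 to 1.38, and one minus that of all genes of 0.0091 to 1.67. All calls of members came without total RNA 1 (29.9% of all genes, 34.5% of probes, 74.97% relative to GAPDH and 8.95% of genes by probe), when the lone total RNA 2 was assumed to vary like the TIA1 RIP arrays; the 14, the 10, the 0.08 and the 0.0091 came without total RNA 2. Without TIA1 RIP 2, 28 members were higher (29.5% of all genes), and without TIA1 RIP 1, 3 were lower (29.1%). The cause was not tested.

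Log2 ratios near 0 turned: HNRNPL to 0.19, HNRNPM to 0.44, SRSF6 to 0.012 and HNRNPA1 to 0.45 with normexp; HNRNPM to 0.12, SRSF6 to 0.18 and HNRNPA1 to 0.21 with the 75th percentile over probes detected on all arrays; HNRNPM to 0.060, SRSF6 to 0.20 and HNRNPA1 to 0.26 with quantile normalization; SRSF6 to 1.03 with probes detected on all arrays or the brightest probe, and HNRNPA1 to 0.86 with the latter. The median of the other splicing regulators turned to -0.31 with probes detected on all arrays and -0.026 with the brightest probe. With spike-in scaling RALY was at 3.32, HNRNPL at 4.34, HNRNPM at 4.63, SRSF6 at 4.68 and HNRNPA1 at 4.72. With 1 array left out, the range was -0.65 to 0.45 for HNRNPA1, -0.35 to 1.82 for HNRNPA3, -0.62 to 0.25 for HNRNPM, -0.21 to 3.48 for PTBP3, -0.37 to 0.40 for SRSF3, -1.16 to 0.90 for SRSF6, -0.039 to 3.75 for SRSF8, -0.46 to 0.58 for TRA2B, -0.43 to 1.65 for the kinases and importers and -0.30 to 0.40 for the other splicing regulators.

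With the replicate number as a block, which the labels do not tie to a batch, limma called 57 genes higher and 299 lower and 0 members (4 at an unadjusted p under 0.05, lowest adjusted p = 0.165); the deviations of same-numbered arrays had a correlation of 0.45. A slide or scan block was not run, since all arrays share 1 slide and 1 scan. The low signal of total RNA 2 limits the levels of 20 member probes there.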
